A study of Mus musculus with 51 samples.

Results

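The MHC class II presentation genes described here are 7 genes chosen by symbol: Cd74, H2-Aa, H2-Ab1, H2-Eb1, H2-DMa, H2-DMb1 and Ciita. The untreated table held 6 of them among 10560 genes, without H2-DMb1, and the table of checkpoint-treated tumors held 7 of 7 among 13458 genes. The study sorted CD8+ T cells from mouse mammary tumors of the AT3-OVA line, an ovalbumin-carrying carcinoma, and from spleens, and profiled each sort by 3′-end RNA sequencing. Tumor cells were sorted into CD103+CD69+ cells (DP), the phenotype of tissue-resident memory, CD103-CD69+ cells (SP) and CD103-CD69- cells (DN). Untreated tumors gave 13 DP, 11 SP and 10 DN libraries, taken at weeks 1, 2, 4 and 6 with 2 to 4 libraries a group. Spleens labelled as controls gave 3 libraries each of naive, central memory (CM) and effector memory (EM) cells. Tumors treated with immune checkpoint blockade gave 3 DP, 3 SP and 2 DN libraries at day 40. The labels name neither the blocking agent nor the mouse strain, age or number of animals per library, and they give the spleen libraries the same tumor cell line and cell type as the tumor libraries.

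MHC class II molecules carry peptides cut from engulfed proteins to the cell surface, where CD4+ T cells read them. H2-Aa and H2-Ab1 encode the alpha and beta chains of the mouse I-A molecule, and H2-Eb1 encodes the beta chain of I-E. Cd74 is the invariant chain, which blocks the peptide groove until the molecule reaches the endosome, and H2-DMa and H2-DMb1 encode the H2-DM editor, which helps exchange the last invariant chain fragment for peptide. Ciita is the coactivator that switches these genes on, working with the RFX and NF-Y factors bound at their promoters. Dendritic cells, macrophages and B cells are the usual sources of class II, and mouse T cells are generally held to make little of it.

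The class II promoters share an X box, bound by RFX, and a Y box, bound by NF-Y, and the pair is shown here as background. Whether these boxes bear on the levels below was not tested. RefSeq promoters (GRCm38.p6, 250 bases before to 50 bases after each start site) were at hand for 4 members with 5 start sites: H2-Aa, H2-Eb1, H2-DMb1 and H2-DMa. Both strands were searched for the Y box TGATTGG and for the X box pattern CTNGNAACT, which was written after the sequences were read. H2-Aa, H2-Eb1 and H2-DMb1 each held both motifs, 24 or 25 bases apart, and neither start site of H2-DMa held either. Of 32851 promoters of the same length, 7.82% held the Y box, 4.1% the X box pattern and 0.35% both. All 3 windows lie on chromosome 17, at chr17:34287852-34287922 (minus strand) for H2-Aa, chr17:34305758-34305827 (plus strand) for H2-Eb1 and chr17:34153079-34153149 (plus strand) for H2-DMb1. The X box pattern and then the Y box are in capitals, 5′ to 3′ on the gene's strand:
H2-Aa: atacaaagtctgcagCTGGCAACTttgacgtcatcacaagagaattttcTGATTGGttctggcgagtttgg
H2-Eb1: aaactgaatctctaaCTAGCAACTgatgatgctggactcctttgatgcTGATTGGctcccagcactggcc
H2-DMb1: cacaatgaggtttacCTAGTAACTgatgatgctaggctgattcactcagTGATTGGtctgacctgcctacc

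The deposited values are normalised levels on a scale read as log2. They are not abundances and can be compared only within a gene and within a table, so every value below is either 1 gene's level or a difference in it. Sequencing depth is unknown, because no counts were analysed here. Genes of T cell identity, among them Cd3e, Cd8a and Cd8b1, were measured for 17 of 17 in both tables. The members varied more between libraries of a group than most genes did, with pooled SDs of 0.34 to 0.51 in the untreated table, where the median gene had 0.22. Spleen EM replicate 2 was above the other two EM libraries in all 6 members, and results that rest on it are given with and without it. Differences were tested with limma and adjusted by Benjamini-Hochberg over all genes of a table, and a gene is called below an adjusted p of 0.05. Because bulk libraries were measured, fewer cells of a type and less RNA per cell cannot be told apart. Every untreated DN library had a library code of 46 or above. Most untreated DP and SP libraries, and all of them at week 1, had codes of 42 or below. Differences between untreated DN and other groups therefore cannot be fully told apart from this run of codes. What the codes record is not known here.

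After checkpoint blockade, all 7 class II genes were highest in DP cells. The classical chains and the invariant chain were higher in DP than in DN cells by 1.65 to 2.16 on the log2 scale, the 4 members that passed the test. In 7 of 7 members the 3 DP libraries lay above all SP and all DN libraries, as they did for 16.9% of all genes against SP and 37.5% against DN. DP against SP passed the test for no member.

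Cd74, the invariant chain, had levels of 8.46, 8.44 and 8.28 in DP, 7.05, 6.83 and 7.42 in SP, and 6.46 and 6.39 in DN. H2-Aa had 7.65, 7.67 and 7.63 in DP, 6.48, 6.05 and 6.77 in SP, and 6.07 and 5.93 in DN. The subsets stood in the order DP, SP, DN for both genes, and for H2-Aa SP replicate 2 lay among the DN libraries. H2-Ab1 had 8.68, 8.70 and 8.64 in DP, 7.46, 7.01 and 7.79 in SP, and 6.74 and 6.60 in DN. H2-Eb1 had 6.78, 6.77 and 6.62 in DP, 5.26, 4.96 and 5.66 in SP, and 4.61 and 4.52 in DN. SP replicate 3 was the highest SP library and replicate 2 the lowest in all of Cd74, H2-Aa, H2-Ab1 and H2-Eb1.

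**Figure D1:**
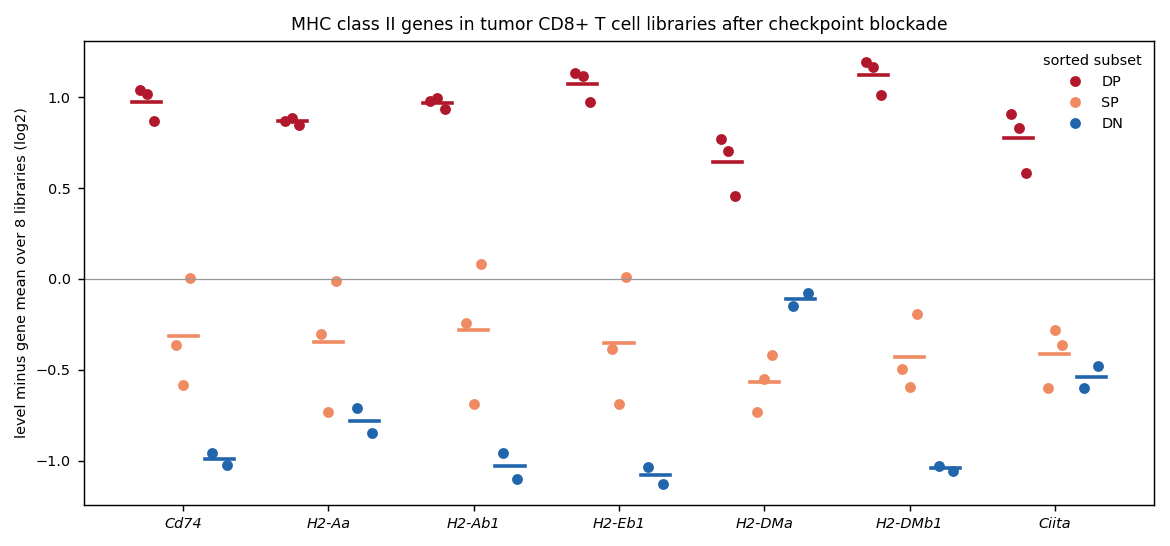
Levels of the 7 class II genes in the 8 libraries after checkpoint blockade, each minus its gene's mean over those libraries (log2 scale), with 1 point per library and a bar at each subset mean. All DP libraries lie above 0 and above every SP and DN library.

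DP exceeded DN by 1.97 (SE 0.23, adjusted p = 0.0169) for Cd74, which is 3.91-fold if the scale is log2. The difference was 2.00 (SE 0.27, adjusted p = 0.0213) for H2-Ab1, 2.16 (SE 0.31, adjusted p = 0.0242) for H2-Eb1 and 1.65 (SE 0.27, adjusted p = 0.0330) for H2-Aa. Over all genes 7.49% were called in DP against DN, and the members' median difference was 1.97 where that of all genes was 0.01. The DN arm has 2 libraries, and without DN replicate 1 or without DN replicate 2 only Cd74 stayed called (adjusted p = 0.0449 and 0.0464), while the other 3 had adjusted p-values of 0.0545 to 0.0900. Without limma's trend and robust options no member was called, with adjusted p-values of 0.0694 to 0.0893 for these 4 genes, while the Cd74 difference ran from 1.91 to 2.02 over all settings and left-out libraries tried.

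The peptide editor and the coactivator were less even. H2-DMb1 had 1.50, 1.47 and 1.32 in DP, -0.19, -0.29 and 0.11 in SP, and -0.73 and -0.75 in DN. Its difference between DP and DN was as large as that of the classical chains at 2.17 (SE 0.49), but it did not pass the test (adjusted p = 0.0648). Reads of H2-DMb1 could be split with its close copy H2-DMb2, which differed by -0.02 (SE 0.92) between DP and DN, so the value of H2-DMb1 is uncertain. H2-DMa, its partner chain, had 6.37, 6.30 and 6.06 in DP, 4.87, 5.05 and 5.18 in SP, and 5.45 and 5.53 in DN. It was the 1 member whose SP libraries all lay below the DN libraries, by 0.46 on average (SE 0.26, adjusted p = 0.377 in SP against DN), and its difference between DP and DN was 0.76 (SE 0.26, adjusted p = 0.147). Ciita had 1.78, 1.70 and 1.46 in DP, 0.27, 0.59 and 0.51 in SP, and 0.27 and 0.39 in DN. SP and DN overlapped for Ciita, and DP lay above DN by 1.31 (SE 0.46, adjusted p = 0.152).

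DP against SP gave differences of 1.19 for Ciita to 1.55 for H2-DMb1, with a median of 1.25. By limma 0 of 7 members were called, with adjusted p-values of 0.158 to 0.358, and 7 of 7 had an unadjusted p below 0.05. The test called 0.0372% of all genes in that comparison. With the residual degrees of freedom left at those of the design, 7 of 7 members and 24.1% of all genes were called. SP against DN gave differences of -0.46 for H2-DMa to 0.75 for H2-Ab1. None was called by limma, 2 of 7 had an unadjusted p below 0.05, and 3.83% of all genes were called. Without SP replicate 2, H2-Ab1 was called, at 0.95 (adjusted p = 0.0495).

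Other genes of the class II pathway moved unevenly between DP and DN after blockade. Of 13 measured, 5 were higher and 1 lower in DP. Legumain (Lgmn), an endosomal protease, was higher by 2.00 (SE 0.29, adjusted p = 0.0263), and the costimulatory ligand Cd80 by 1.50 (SE 0.23, adjusted p = 0.0281). The second costimulatory ligand, Cd86, was higher by 1.36, cathepsin S (Ctss), which trims the invariant chain, by 0.81, and the thiol reductase Ifi30 by 0.92. H2-Ob, a chain of the H2-O inhibitor of H2-DM, was lower by 4.25 (SE 0.62, adjusted p = 0.0260). Of the 7 promoter-binding RFX, NF-Y and CREB genes none was called, and their median difference was -0.14. Of 14 interferon gamma genes 3 were higher, among them the chemokine Cxcl10 by 1.60 and Gbp4 by 0.58, and the kinase Jak1 was lower by 0.46. Of 15 class I genes 5 were higher and none lower, with a median of 0.26.

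Markers of macrophages and monocytes moved with the class II genes in these libraries. Of 19 markers measured, 15 were higher in DP than in DN and none lower, with a median of 2.19, including Mrc1 by 3.47, Aif1 by 2.80 and Cd14 by 2.60. Their summed level, given as the mean over the list minus each gene's mean, was 0.83 to 1.07 in DP, -0.45 to 0.02 in SP and -1.08 to -1.06 in DN. That is the order of the class II genes, whose mean on the same scale was 0.81 to 0.98 in DP, -0.59 to -0.13 in SP and -0.82 to -0.78 in DN. Dendritic cell markers had 1 of 14 higher, Cst3, and B cell markers 0 of 16 in either direction. B cell markers ranged over -0.57 to 0.10 in DP, -0.46 to 1.02 in SP and -0.01 to 0.49 in DN, and dendritic cell markers over 0.12 to 0.20, -0.44 to 0.37 and -0.22 to -0.08. Foxp3, a regulatory T cell factor, was higher in DP by 3.34 (SE 0.42), with 3 of 6 CD4 and regulatory markers called. Stromal and endothelial markers had 2 of 6 higher and tumor epithelial markers 1 of 8. The part of other cells in the class II difference was not tested.

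In untreated tumors DP also had the higher mean in most members. Over weeks 2, 4 and 6, weighted equally, DP lay above SP in 6 of 6 members, by 0.19 for Ciita to 0.59 for H2-Eb1. It lay above DN in 5 of 6, by 0.46 to 0.56 in all but Ciita, and no member passed the test in either comparison. SP and DN differed by 0.21 or less in this average. Their median member difference, SP minus DN, changed sign between weeks, at -0.18, -0.09 and 0.21 at weeks 2, 4 and 6.

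Cd74 had means ± SD of -1.52 ± 0.44 (n = 4), -0.81 ± 0.30 (n = 3) and -0.69 ± 0.50 (n = 3) in DP at weeks 2, 4 and 6. In SP it had -2.37 ± 0.78 (n = 3), -1.18 ± 0.21 (n = 2) and -0.78 ± 0.08 (n = 3), and in DN -2.08 ± 0.56 (n = 3), -1.29 ± 0.20 (n = 3) and -1.01 ± 0.18 (n = 2). DP had the highest mean at each of these weeks, and its libraries overlapped those of SP and of DN at each of them. H2-Eb1 had 2.33 ± 0.44, 2.95 ± 0.36 and 3.11 ± 0.47 in DP against 1.39 ± 0.76, 2.44 ± 0.03 and 2.79 ± 0.10 in SP, with the same numbers of libraries. The widest gap between DP and SP was at week 2, where SP replicate 3 was the lowest of the 43 untreated libraries in each of the 6 members.

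DP exceeded SP over weeks 2 to 6 by 0.59 (SE 0.26, adjusted p = 0.275) for H2-Eb1, 0.55 (SE 0.24, adjusted p = 0.273) for H2-Aa, 0.54 (SE 0.27, adjusted p = 0.342) for H2-Ab1 and 0.45 (SE 0.19, adjusted p = 0.260) for H2-DMa. For Cd74 it was 0.44 (SE 0.29, adjusted p = 0.505). By limma 0 of 6 members were called, 3 had an unadjusted p below 0.05, and 0.417% of all genes were called. Week by week the median member difference was 0.41, 0.88, 0.48 and 0.22 at weeks 1, 2, 4 and 6. Single libraries moved these medians widely. Without SP replicate 2 or SP replicate 3 the week 1 median was 0.21 or 0.65, and without SP replicate 3 or SP replicate 2 the week 2 median was 0.54 or 1.33. At week 6 it was -0.04 without DP replicate 3 and 0.41 without DP replicate 2. Against DN the medians were 0.87, 0.61, 0.40 and 0.39 and stayed above 0 whichever library was left out, between 0.19 (week 6 without DP replicate 3) and 1.19 (week 1 without DP replicate 3).

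DP against DN over weeks 2 to 6 also called 0 of 6 members, where 23.3% of all genes were called and 3 members had an unadjusted p below 0.05. The lowest adjusted p was that of H2-DMa, at 0.0900 for a difference of 0.46 (SE 0.19), and without DP week 4 replicate 3 it was 0.0427 for 0.54. Fitted on the 6 groups compared alone, 4 members and 40.6% of all genes were called. After quantile normalization, which also left no degrees of freedom to scale, 5 members and 38.5% of all genes were called. SP against DN called 0 of 6, none with an unadjusted p below 0.05, where 17.0% of all genes were called. Its 95% interval for Cd74 ran from -0.62 to 0.66 and for H2-DMa from -0.42 to 0.43.

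**Figure D2:**
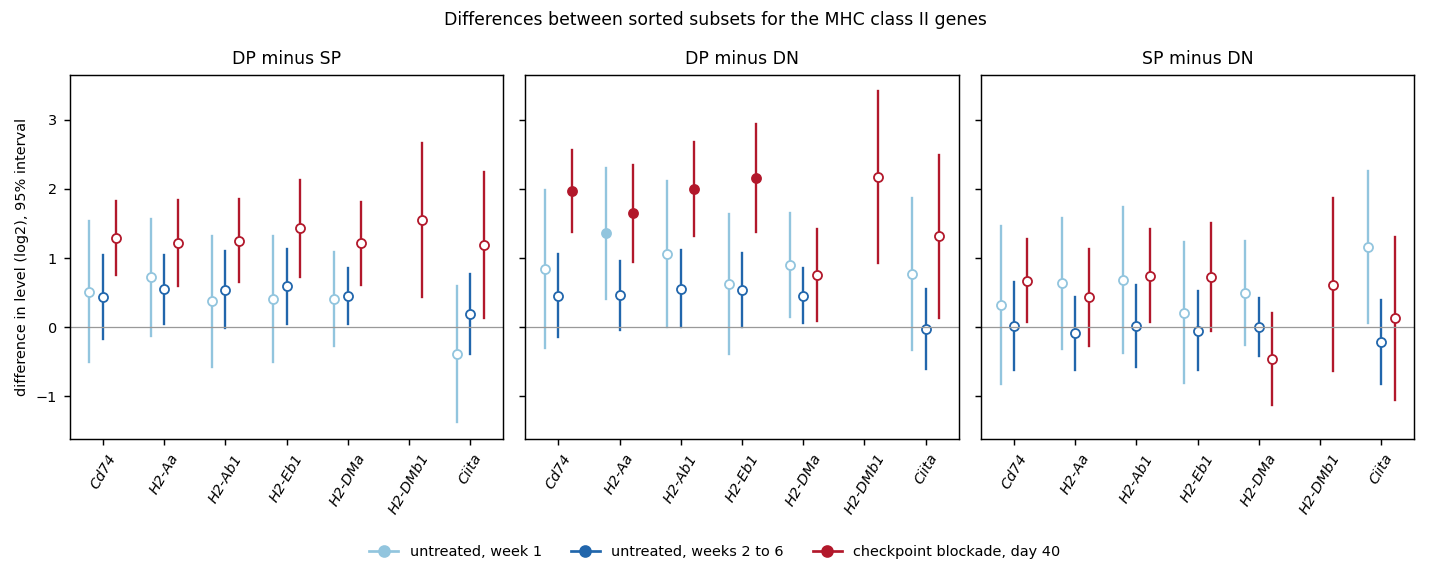
Differences in level between sorted subsets for each class II gene (log2 scale), with 95% intervals, in untreated tumors at week 1 and over weeks 2 to 6 and after checkpoint blockade, each from its own table. Filled points were called, and these are H2-Aa at week 1 and Cd74, H2-Aa, H2-Ab1 and H2-Eb1 after blockade, all in DP against DN.

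In the untreated tumors, DP against DN over weeks 2 to 6 called 23.3% of all genes, with 1035 of 10560 higher in DP. Other class II pathway genes were higher in DP than in DN for 3 of 10. These were Cd86 by 1.25 (SE 0.19), Cd83, which stabilises class II at the surface, by 0.91 (SE 0.17) and Ctss by 0.56 (SE 0.15). Against SP 0 of 10 were called and 10 of 10 were positive, with a median of 0.42. The macrophage markers had 3 of 14 higher in DP than in DN, Emr1 by 1.13, Lyz2 by 0.82 and Tyrobp by 0.72, and a median of 0.47. Against SP 0 of 14 were called, with 14 of 14 positive and a median of 0.40. The members' medians were 0.46 against DN and 0.50 against SP, and those of all genes -0.03 in both. The mean macrophage level at weeks 2, 4 and 6 was -0.28, 0.40 and 0.59 in DP, -0.95, -0.12 and 0.52 in SP, and -0.75, 0.03 and 0.09 in DN. The part of these markers in the members' differences was not tested.

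At week 1 the DP cells had the highest mean in 5 of 6 members, all but Ciita, and 1 member passed the test against DN. H2-Aa had 0.88, 0.70 and 0.37 in DP, -0.39, -0.37 and 0.53 in SP, and -0.53 and -0.89 in DN. DP and DN did not overlap for H2-Aa, Cd74, H2-Ab1, H2-Eb1 and H2-DMa, and DP and SP overlapped for all 6 members. Of all genes, 22.9% had every DP library above both DN libraries. The difference between DP and DN in H2-Aa was 1.36 (SE 0.45, adjusted p = 0.0355), in a comparison that called 22.7% of all genes. It was not called without DN replicate 1, DN replicate 2, DP replicate 1 or DP replicate 2, each left out alone, at 1.18 to 1.54 with adjusted p-values of 0.0592 to 0.150. The other members were higher in DP by 0.62 for H2-Eb1 to 1.06 for H2-Ab1 without passing, 2 of them with an unadjusted p below 0.05.

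The libraries of week 1 also differed in markers. Tumor epithelial markers were higher in DP than in DN for 4 of 6, with a median of 4.67, macrophage markers for 4 of 14, with a median of 0.67, and 11 of 17 T cell identity genes were lower. The week 1 macrophage level was 0.09 to 0.52 in DP, -0.36 to 0.07 in SP and -0.48 to -0.47 in DN, and its part in the H2-Aa difference was not tested. DP against SP at week 1 called 0 of 6 members, none with an unadjusted p below 0.05, where 17.4% of all genes were called. SP against DN called 0 of 6, 1 of them with an unadjusted p below 0.05, where 7.26% of all genes were called. That member was Ciita, at 12.87, 12.31 and 12.89 in SP and 11.12 and 11.96 in DN, a difference of 1.16 (SE 0.53, adjusted p = 0.186).

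Whether the subset differences changed after week 1 was tested directly. The change called 0 of 6 members for DP against SP, where 14.7% of all genes were called, 0 of 6 for DP against DN (25.8%) and 0 of 6 for SP against DN (6.53%). By limma none had an unadjusted p below 0.05 for either DP comparison, and Ciita alone had for SP against DN. The widest was 1.37 (SE 0.60, adjusted p = 0.189) for Ciita in SP against DN.

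Levels at week 6 were above those at week 1 in most members of each subset without passing the test. In DN, 6 of 6 members had higher levels at week 6 without overlap, by 0.59 for H2-DMa to 1.29 for Ciita. Of all genes, 61.8% had a higher mean and 36% were higher without overlap. Both groups have 2 libraries there, the adjusted p-values were 0.190 to 0.537, and 2 members had an unadjusted p below 0.05. H2-Aa in DN had -0.53 and -0.89 at week 1 and 0.26 and 0.58 at week 6. In SP 5 of 6 were higher, Cd74 by 0.91 (SE 0.49, adjusted p = 0.363), and in DP 5 of 6, H2-Ab1 by 0.53 (SE 0.45). Of all genes 5.79% were called in DN, 2.72% in SP and 25% in DP, and no member was called in any of them. Neither SP nor DP had a member with an unadjusted p below 0.05. In DP 8 of 13 interferon gamma genes, 9 of 15 class I genes and 4 of 10 other class II pathway genes were higher at week 6, and 11 of 17 T cell identity genes. Of these lists 1 interferon gamma gene and 2 class I genes were lower.

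**Figure D3:**
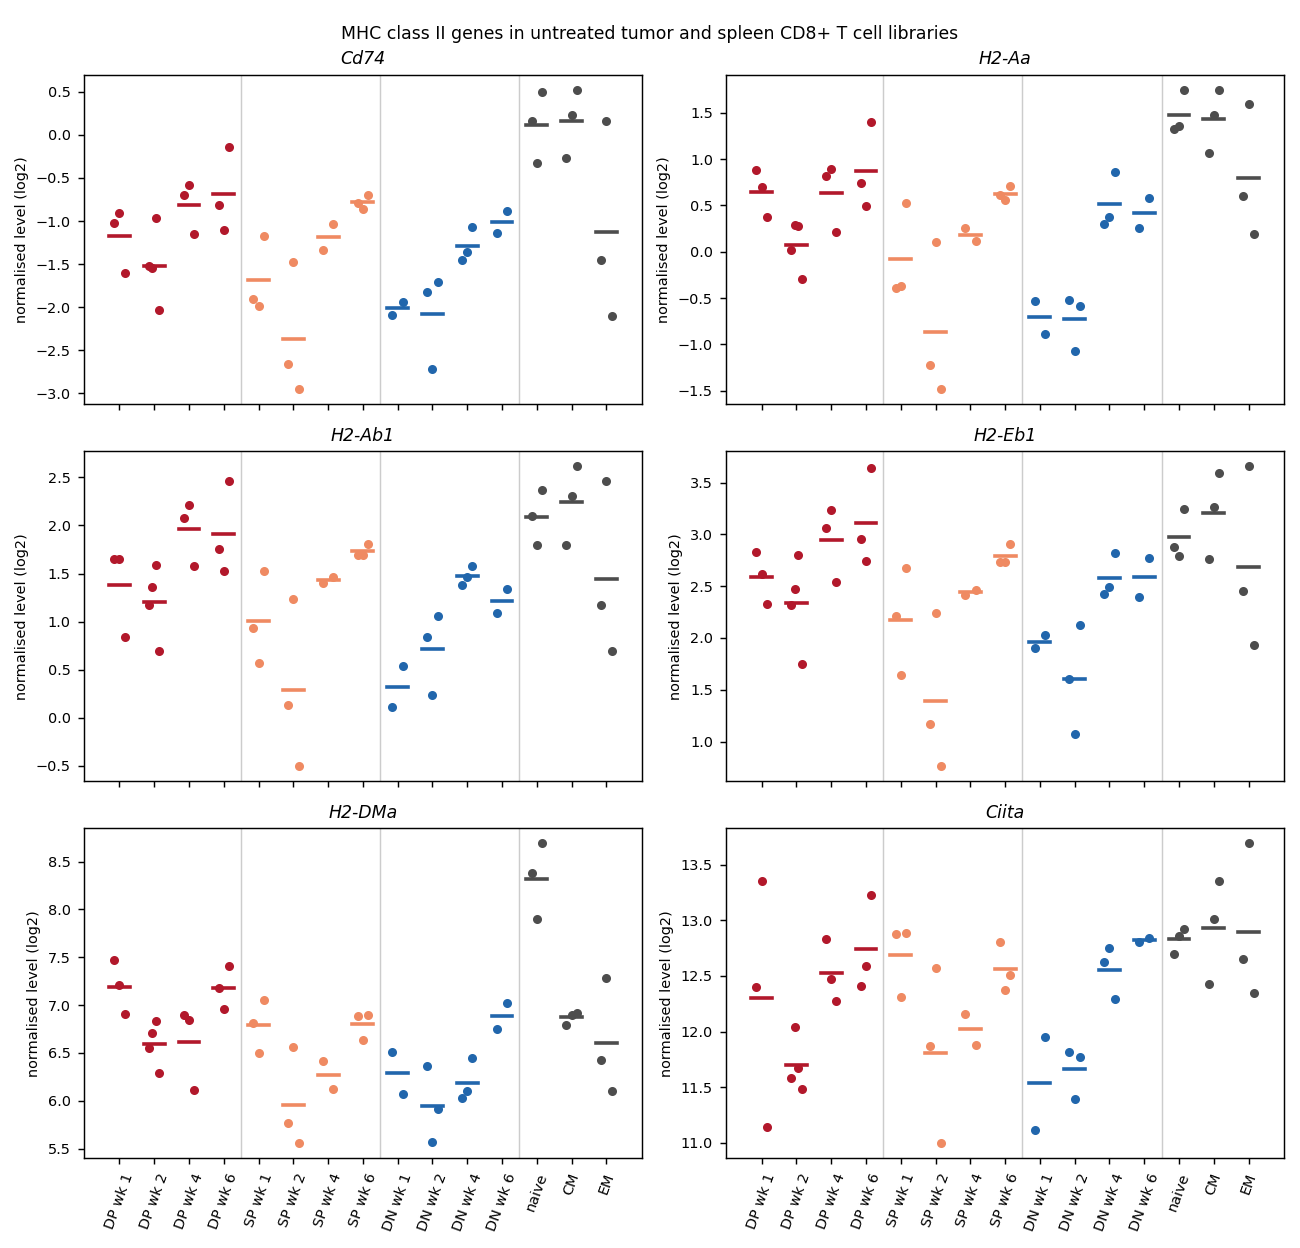
Level of each of the 6 class II genes in the 43 untreated libraries (log2 scale), by sorted subset, week and spleen group, with 1 point per library and a bar at each group mean. The spleen naive and CM groups are highest for Cd74 and H2-Aa, SP at week 2 is lowest for 4 genes, and spleen naive cells stand alone for H2-DMa.

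Over the 15 untreated groups, the spleen held the highest mean for all 6 members: CM for Cd74, H2-Ab1, H2-Eb1 and Ciita, and naive for H2-Aa and H2-DMa. SP at week 2 held the lowest for Cd74, H2-Aa, H2-Ab1 and H2-Eb1. Cd74 ran from 0.16 ± 0.40 (SD, n = 3) in spleen CM to -2.37 ± 0.78 (n = 3) in SP at week 2, and H2-Eb1 from 3.21 ± 0.42 (n = 3) to 1.39 ± 0.76 (n = 3). Ciita ran from 12.93 ± 0.47 (n = 3) in spleen CM to 11.54 ± 0.59 (n = 2) in DN at week 1. Of the 14 neighbouring pairs in that order, none was without overlap for Cd74, H2-Eb1 and Ciita, 1 for H2-Ab1 and H2-DMa and 2 for H2-Aa. The order of most neighbours is thus not firm. Groups were sorted by these same means first, which favours overlap between neighbours, and the share over all genes was not taken.

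Naive spleen cells were set apart by H2-DMa. They had 8.38, 7.90 and 8.69, against 6.80, 6.90 and 6.92 in CM and 6.43, 7.28 and 6.10 in EM. Every naive library lay above every other untreated library for this gene. EM fell below naive by 1.72 on average (SE 0.33, adjusted p = 0.000510), and CM lay below it with a difference of -1.45 (SE 0.33, adjusted p = 0.00346). Both differences kept their call whichever library was left out, EM against naive at -2.06 to -1.47 and CM against naive at -1.66 to -1.26. The other 5 members did not share this pattern in CM, with differences from naive of -0.05 to 0.23, none called, where 18.8% of all genes were called.

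Cd74 had 0.16, -0.32 and 0.50 in naive, -0.27, 0.23 and 0.53 in CM and -1.45, 0.16 and -2.10 in EM. EM replicate 2 lay among the naive and CM libraries and the other two below all of them. EM against naive was -1.24 (SE 0.49, adjusted p = 0.0705) and EM against CM -1.29 (SE 0.49, adjusted p = 0.0795), neither called. Without EM replicate 2 both were called, at -1.89 (adjusted p = 0.00315) and -1.94 (adjusted p = 0.00467), and H2-Ab1 was then called against CM at -1.31 (adjusted p = 0.0429). That library was picked out by these same members' levels, so leaving it out was bound to widen the differences. With 1 library left out at a time, the members' median ran from -1.12 to -0.32 for EM against naive. For EM against CM it ran from -1.02 to -0.24. EM against naive called 1 of 6 members, H2-DMa, where 24.6% of all genes were called. EM against CM called 0 of 6 by limma, where 15.4% of all genes were called, and 1 member, Cd74, had an unadjusted p below 0.05.

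Among other class II pathway genes in the spleen, EM was below naive for 3 of 10, with differences of -1.98 (SE 0.26) for Ctss, -1.61 (SE 0.50) for Lgmn and -1.17 (SE 0.42) for Cd40, a costimulatory receptor. CM differed from naive in 0 of 10 by limma. Macrophage markers in EM against naive had 3 of 14 lower and 1 higher, in a comparison that called 24.6% of all genes. Among the lower ones were C1qb at -3.88 and C1qc at -1.78. EM replicate 2 had a macrophage level of 0.49, and EM replicates 1 and 3 had -0.48 and -0.88. In CM against naive 0 of 14 were called. The B cell markers rose for 2 of 8 in EM against naive, Ebf1 by 2.43 and Cd22 by 1.45, and the part of either list in the members' values was not tested.

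No member passed the test between tumor cells and spleen EM cells. DP lay above EM in 4 of 6 members, with a median of 0.12, where 29.2% of all genes were called and no member had an unadjusted p below 0.05. SP and DN lay below EM in 6 of 6, with medians of -0.39 and -0.38, where 30.3% and 19.5% were called. The SP and DN directions rest on EM replicate 2. Without it DP lay above EM in 5 of 6 members with a median of 0.57, SP in 4 of 6 with a median of 0.05 and DN in 4 of 6 with a median of 0.07, none called. Without EM replicate 1 the medians were -0.02, -0.53 and -0.52, and without EM replicate 3 -0.31, -0.82 and -0.81. The DP median was thus negative in both of these cases. In SP and in DN, 1 member had an unadjusted p below 0.05 over all libraries, H2-Aa. SP against EM in H2-Aa was -0.81 (SE 0.34, adjusted p = 0.0738). It was -0.42 (adjusted p = 0.402) without EM replicate 2, and it was called without SP week 2 replicate 2 at -0.98 (adjusted p = 0.0160) and without EM replicate 3 at -1.12 (adjusted p = 0.0398). B cell markers lay below EM for 7 of 8 in DP and 6 of 8 in SP and DN.

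The members moved together from library to library. Over the 43 untreated libraries, Pearson's r between pairs of Cd74, H2-Aa, H2-Ab1 and H2-Eb1 was 0.93 to 0.96. H2-DMa had 0.69 to 0.78 with these 4 genes, and Ciita had 0.72 to 0.76 with them and 0.56 with H2-DMa. Between deviations from the group means, where subset, week and tissue no longer enter, Cd74 and H2-Ab1 had 0.97 and Cd74 and Ciita 0.70. The libraries share groups and processing, and their deviations span 18 of 28 directions, so these values describe the table and carry no p.

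Genes most like the mean of the members over the 43 libraries were Mpeg1 (r = 0.90, Spearman's rho 0.87), Sfpi1 (r = 0.88), Psap, Lrp1, Csf1r, Emr1, Atp6ap1 and Cd40, the last at r = 0.83. Within groups they were Mpeg1 (r = 0.93, rho 0.94), Sdc3 (r = 0.91), Lgmn, C1qc, Axl, Psap, C1qb and Ctsh, the last at r = 0.86. Mpeg1, Sfpi1, Csf1r, Emr1, C1qb and C1qc are among the macrophage and monocyte markers listed, where Sfpi1 and Emr1 are the table's symbols for Spi1 and Adgre1.

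Whole lists were set against the mean of the members without Ciita. The 14 macrophage markers followed that mean with r = 0.91 (rho 0.91) over 43 libraries, and 0.90 without the 2 libraries farthest from the median. They had 0.96 over the 34 tumor libraries and 0.94 within groups. The other class II pathway genes had 0.90, dendritic cell markers 0.61 and B cell markers 0.49. Lists of interferon gamma and class I genes had -0.41 and -0.28, although both were positive within groups at 0.43 and 0.36. Over the 34 tumor libraries they had -0.15 and 0.008. The promoter-binding factors had 0.16, T cell identity genes -0.19 and tumor epithelial markers -0.23. Which cells carried the class II transcripts was not tested.

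**Figure D4:**
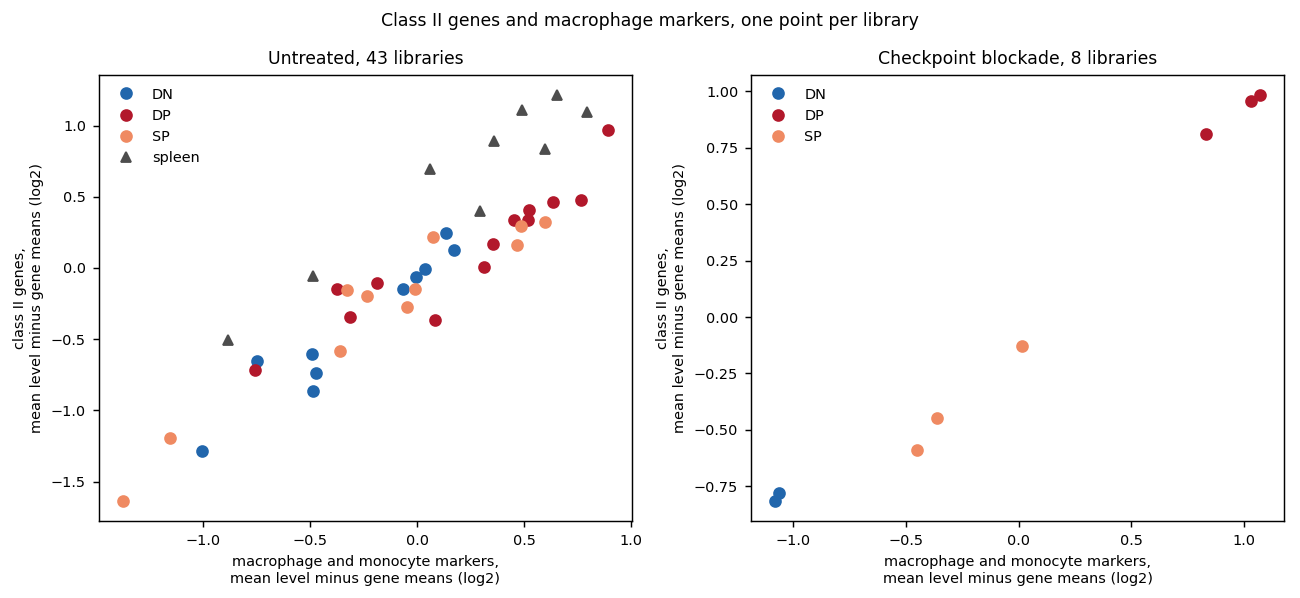
Mean level of the class II genes against mean level of the macrophage and monocyte markers, each minus gene means (log2 scale), with 1 point per library in the untreated table (left) and after checkpoint blockade (right). In the untreated tumor libraries both means rise together. The r was 0.96 (n = 34) with Ciita, which is part of the plotted mean, left out. After blockade the DP libraries lie at the upper end and the DN libraries at the lower end.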

How the data were processed

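CD8+ T cells sorted from tumors and spleens were profiled in 51 libraries. Libraries were made from 10 ng RNA with the QuantSeq 3' FWD kit and read as 75 bp single ends, per the labels' protocols. The submitters' processing notes list HISAT2, HTSeq and mm10 and give no version. The authors deposited normalised values in 2 tables, read here as log2 because they run below 0 (the base is an inference and the normalization is not given in the sources used here). Every column was a sample of the series.

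Group means were fitted in each table apart with limma 3.58.1 (R 4.3.3, trend and robust options, statmod 1.5.0), so the effect of blockade was not tested. Deviations from group means spanned 18 of 28 directions in the untreated table and 2 of 5 in the other, and residual degrees of freedom and variances were scaled by 0.643 and 0.4. No filter on low values was used. The fit was tested on simulated data. P-values were adjusted by Benjamini-Hochberg over each table, with a call below 0.05. Replicates are separate samples per the labels, whose cultures or animals are not given, so p-values measure the spread between them.

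Every member is named. From each other list up to 3 called genes with the largest differences are named per comparison, and the 8 genes most correlated with the members. 1 gene that this rule names is not reported here. Cd86, Ifi30 and Ctss after blockade, Jak1 and single defining markers were added after their values were seen. Older symbols were matched through RefSeq synonyms for 4 listed genes. Figures were drawn with matplotlib 3.10.9. The members and lists were chosen with earlier results of these data known.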

Additional observations from a re-analysis of the deposited data

How the results depend on the processing

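Counts of members called moved with the settings. The share of all genes called stands in brackets. With the residual degrees of freedom of the design they were 3 for DP against DN over weeks 2 to 6 (37.4%). At week 1 they were 3 (37.1%). There was 1 for the change of SP against DN after week 1 (19.5%) and 1 for DN from week 1 to 6 (18.9%). Against spleen EM there was 1 for SP (44.5%) and 1 for DN (34.7%). EM against naive had 2 (38%) and EM against CM 1 (30%). After blockade they were 7 for DP against SP (24.1%), 7 for DP against DN (45.3%) and 5 for SP against DN (38.8%). After quantile normalization the deviations span 28 of 28 and 5 of 5 directions, so that no scaling applied. It gave 1 for DP against SP (9.19%) and 5 for DP against DN (38.5%) over weeks 2 to 6. DP against DN at week 1 had 3 (35.9%). Against EM there were 2 for SP (44.4%) and 1 for DN (36.1%). EM against naive had 2 (39%) and EM against CM 1 (30.7%). After blockade there were 7 for DP against SP (23.9%), 7 for DP against DN (46.2%) and 4 for SP against DN (38.5%). Fits on the groups compared alone gave 4 for DP against DN over weeks 2 to 6 (40.6%) and 0 at week 1 (1.86%). The change after week 1 had 1 for DP against DN (35.8%) and 1 for SP against DN (16.5%). SP from week 1 to 6 had 1 (17.3%), and DP against DN after blockade had 7 (35.4%). For DP against DN after blockade, equal library medians gave 7 (22.5%) and plain eBayes 0 (0.104%). With the lowest 25% of genes by mean level left out, DP against DN at week 1 had 0. In the untreated table that 25% held Cd74, H2-Aa, H2-Ab1 and H2-Eb1, so H2-DMa and Ciita alone were tested under this setting. With the run of library codes as a term, DP against DN at week 1 also had 0. Weighting weeks 1, 2, 4 and 6 equally gave 3 for DP against DN (19.5%). The causes of the other shifts were not tested.

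Leaving out 1 library at a time gave 0 to 1 for DP against DN in both periods, 0 to 1 for SP against EM, 1 to 2 for EM against naive, 0 to 2 for EM against CM, and after blockade 1 to 5 for DP against DN and 0 to 1 for SP against DN. With the replicate number as a replicate block, DP against DN after blockade had 5 members and 13.9% of all genes called. H2-Aa at week 1 then differed by 1.34 (adjusted p = 0.0297), and no count of members called moved by over 1.5 times. Deviations of same-numbered libraries correlated by -0.664 to 0.861 in the untreated table (median 0.00253). After blockade they correlated by -0.995 to 0.920 (median 0.361, 7 pairs). Not every pair moved together, and the numbers were not taken as pairs. The library codes did not follow the numbers. After blockade DN replicate 1 (code 85) came after DP and SP replicate 2 (codes 83 and 84). Pairing by code was not tested. No called member changed direction under any setting tried. Limits are 2 or 3 libraries in most groups, unknown depth, a scale that gives no abundance and deviations that span fewer directions than the design leaves, for which the labels give no reason.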
